A study of Homo sapiens with 6 samples.

Results

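The heterotrimeric G protein gamma subunits were followed in side population (SP) and non-SP cells of IGROV1, an established human ovarian carcinoma line. Side population cells are the few that stay dim after staining with the DNA dye Hoechst 33342, because membrane transporters pump it out. Both groups came from Hoechst sorting with no other treatment, so all cells were stained and passed the laser. The amount of dye kept differs between the groups by definition, and its effect cannot be told apart from SP status. From each group 3 samples were hybridised to 1 array apiece. The samples are called biological replicates, but the labels name no separate cultures, so the spread between them may in part be technical. The members are GNG2, GNG3, GNG4, GNG5, GNG7, GNG10, GNG11, GNG12, GNGT1 and GNGT2: 10 of the 19775 genes with a probe set of their own, represented by 21 of 54613 probe sets. They were taken by name, as every probe set that the platform annotation pairs with 1 of these symbols alone. GNG11 is the reason for the choice, because it stood out among the genes higher in SP cells in these same arrays. The SP against non-SP values of the members are therefore given as a description, with errors but with no test.

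A gamma subunit is a small protein that stays bound to a beta subunit, and the beta-gamma dimer carries an alpha subunit to an activated receptor. Once the receptor has loaded the alpha subunit with GTP, the dimer is freed and acts on adenylyl cyclases, phospholipase C beta, ion channels and phosphoinositide 3-kinases. The gamma subunit anchors the dimer in the membrane through a lipid at its tail, a farnesyl group in the products of GNG11, GNGT1 and GNGT2 and a geranylgeranyl group in most others. GNGT1 and GNGT2 encode the gamma subunits of rod and cone transducin, while GNG5, GNG10, GNG11 and GNG12 are expressed in many tissues.

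Values are log2 levels after RMA, a procedure that sets all arrays to 1 shared distribution, so the median of each array lay between 5.59 and 5.64. The mean of 3 probe sets for a bacterial transcript, used here as negative controls, lay between 2.82 and 2.96. A level above it says little by itself, since 83.3% of all probe sets lay above it on all 6 arrays. The 9 epithelial and Mullerian markers of the line lay above it on all arrays, among them EPCAM, at 12.05 ± 0.05 (SD, n = 3) for SP samples and 12.20 ± 0.09 (SD, n = 3) for non-SP samples, and PAX8, at 10.33 ± 0.25 (SD, n = 3) and 10.42 ± 0.23 (SD, n = 3). Others of the list differed more, KRT7 and CDH1 by 0.79 each (SE 0.18 and 0.31) and KRT8 by -0.71 (SE 0.22). Of the 9, 3 had an unadjusted p under 0.05 and 0 passed an adjusted p of 0.05 (limma over all probe sets). Over all genes the share with an unadjusted p under 0.05 was 6.18%. The first principal component of all probe sets held 38.1% of the variance and parted the arrays in a way the labels do not give. SP replicate 1 lay with non-SP replicates 1 and 3 (array set A), and SP replicates 2 and 3 lay with non-SP replicate 2 (array set B). The ACTB signal of the 3' probe set minus that of the 5' probe set, a measure of RNA integrity and amplification, was 2.02 to 2.29 in set A and 2.46 to 2.55 in set B. The same measure for GAPDH did not part the sets, at 0.04 to 0.15 in set A and 0.04 to 0.36 in set B.

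GNG11 was measured by probe set 204115_at, and its level was 6.46, 6.44 and 6.25 in the non-SP samples and 7.77, 7.99 and 7.86 in the SP samples. The 2 groups did not overlap, and 1.31 log2 units separated the lowest SP sample from the highest non-SP sample. The means were 7.87 ± 0.11 (SD, n = 3) and 6.38 ± 0.12 (SD, n = 3), a difference of 1.49 (SE 0.13, 95% interval 1.18 to 1.80), or 2.81-fold with an interval of 2.26 to 3.49. In sorted populations a higher mean can come from more RNA per cell or from more cells that hold the transcript, and these cannot be told apart. Samples of 1 group lay close together: the pooled SD of 0.12 compares with a median of 0.23 over all probe sets. Nothing is read from this smaller spread, because GNG11 was chosen from the same contrast. By size alone GNG11 did not stand alone, as 131 probe sets had a difference at least as high and 100 had one at least as far below 0. A gap between the groups at least as wide was seen at 17 probe sets with SP higher, GNG11 included, and at 18 with SP lower.

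The GNG11 difference was 1.42 within array set A and 1.48 within array set B. Between the sets, inside each group, GNG11 differed by 0.15 among SP and by 0.09 among non-SP samples. SP replicate 1 was the only SP sample of set A, and non-SP replicate 2 the only non-SP sample of set B. Each of these values thus sets a single sample against a pair. Leaving out each sample in turn gave differences between 1.42 and 1.54. The other GNG11 probe set, 239942_at, read 2.20, 2.06 and 2.03 in non-SP and 2.17, 1.86 and 1.99 in SP samples. Those 6 values lay below the negative controls of their arrays, so this probe set gives no level for the gene, and its difference of -0.09 (SE 0.14) carries no information on it. Averaging both probe sets gave 0.70 (SE 0.10), or 1.62-fold.

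**Figure D1:**
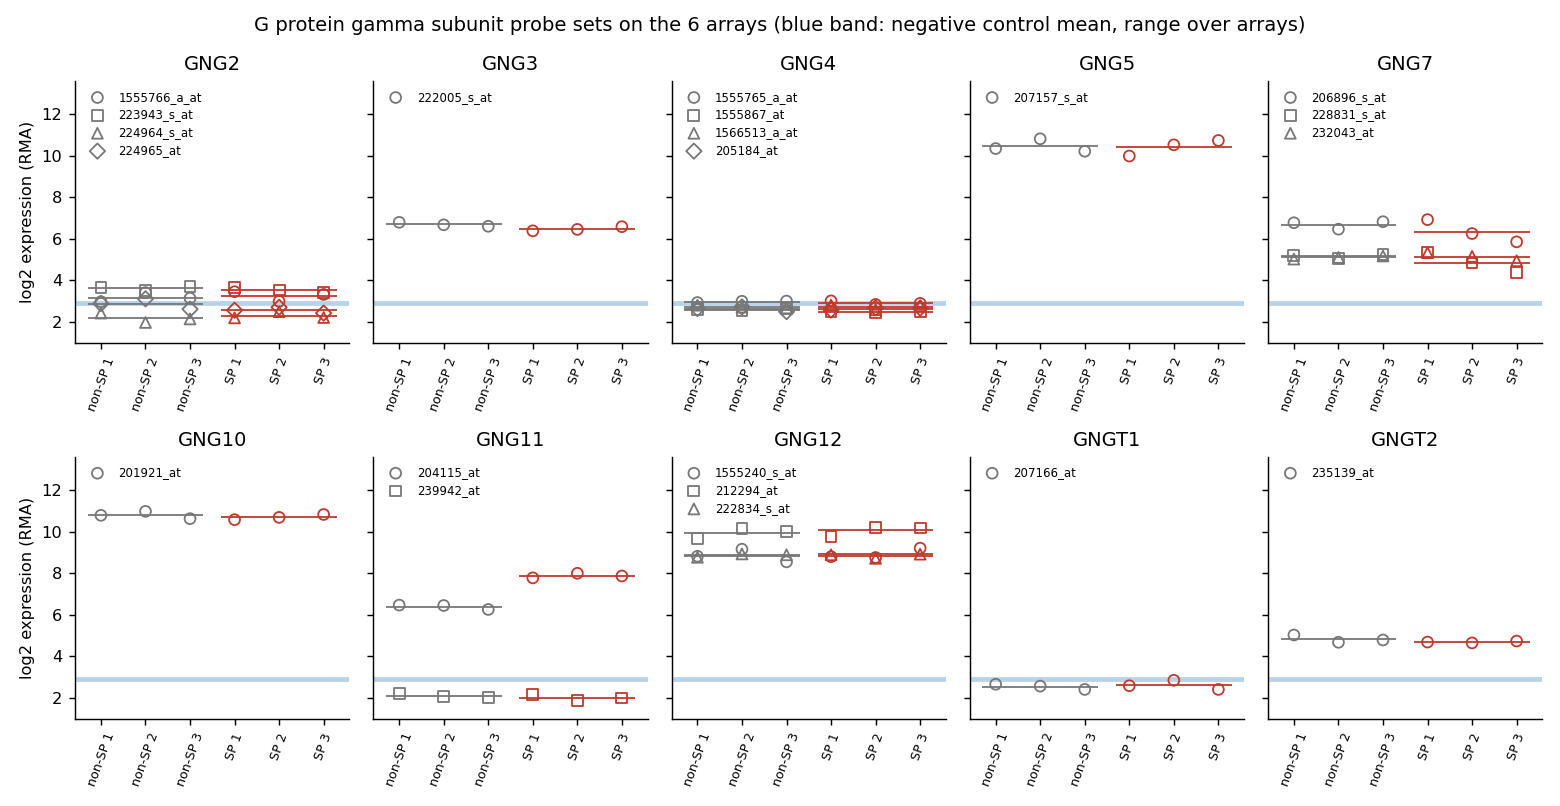
Log2 level of each member probe set (marker shape) on the 6 arrays, non-SP in grey and SP in red, with group means as lines and the range of the negative control mean as a blue band. The SP values of GNG11 204115_at sit between 7.77 and 7.99 and its non-SP values between 6.25 and 6.46, while its second probe set lies under the band.

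Over the 21 probe sets of the family, 8 differences were above 0 and 13 below. Their median was -0.05, beside -0.02 over all probe sets. Groups that did not overlap with SP higher were seen at 1 member probe set, GNG11 204115_at, where 5.59% of all probe sets did the same. SP was lower without overlap at 2 member probe sets, against 6.87% of all. For the 19 probe sets of the other 9 genes the differences ran from -0.34 to 0.12, and the 95% interval held 0 for each of them. These intervals ran from -1.02 at the lowest to 0.58 at the highest. Across the whole table, 0.00183% of probe sets (1 of 54613, for the non-coding RNA LINC00518, lower in SP cells) passed an adjusted p of 0.05 (limma, Benjamini-Hochberg adjustment), and this 1 was named after its value was seen. Since GNG11 was chosen from this contrast, nothing is read from its place among these counts and intervals.

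**Figure D2:**
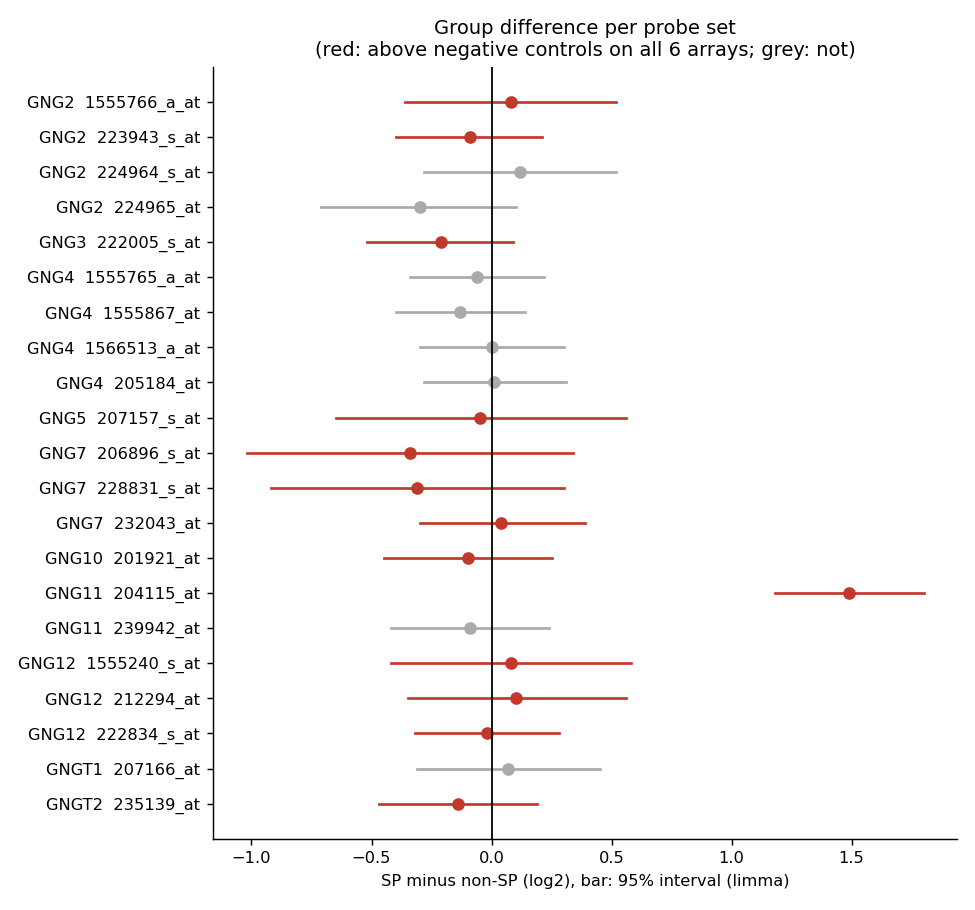
SP minus non-SP difference on the log2 scale for each of the 21 member probe sets, with the 95% interval from the limma fit; red marks probe sets above the negative controls on all 6 arrays. GNG11 204115_at lies at 1.49 and the other 20 intervals hold 0.

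GNG5, GNG10 and GNG12, the widely expressed gamma subunits, had levels between 8.54 and 10.97 over their probe sets and the 6 arrays. GNG5 read 10.35, 10.82 and 10.22 in non-SP and 9.99, 10.53 and 10.74 in SP samples, so the groups overlapped, with a difference of -0.05 (SE 0.25). Its high values were those of array set B and its low values those of set A: set B was higher by 0.65 among SP and by 0.54 among non-SP samples. GNG10 read 10.78, 10.97 and 10.62 in non-SP and 10.57, 10.68 and 10.82 in SP samples, a difference of -0.10 (SE 0.15). A further probe set is annotated to DNAJC25 and to the DNAJC25-GNG10 readthrough together and was not counted as a member. GNG12 had 3 probe sets, and the brightest, 212294_at, read 9.66, 10.16 and 10.00 in non-SP and 9.78, 10.19 and 10.17 in SP samples. Its difference of 0.10 (SE 0.19) and those of 1555240_s_at (0.08, SE 0.21) and 222834_s_at (-0.02, SE 0.12) were within their errors. Probe set 212294_at was higher in set B by 0.40 among SP and 0.33 among non-SP samples, whereas 222834_s_at differed by -0.07 and 0.10.

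GNG7, the gamma subunit that pairs with the olfactory type alpha subunit in striatal neurons, had the most variable values of the family inside the groups. The largest pooled SD among the members was 0.41, at its probe set 206896_s_at. Probe set 206896_s_at read 6.78, 6.47 and 6.83 in non-SP and 6.93, 6.26 and 5.86 in SP samples. The SP samples thus held both the highest and the lowest value, and the difference of -0.34 (SE 0.28) was smaller than the SD among SP samples, 0.54. It moved to -0.09 without SP replicate 3, to -0.63 without SP replicate 1 and to -0.14 with the array set as a block. Probe set 228831_s_at followed the same order, with 5.21, 5.04 and 5.24 in non-SP and 5.36, 4.84 and 4.37 in SP samples and a difference of -0.31 (SE 0.25). In both, array set B was lower, by 0.87 and 0.76 among SP and by 0.34 and 0.18 among non-SP samples, the reverse of GNG5. The third probe set, 232043_at, moved less, from 4.95 to 5.34 over the 6 arrays.

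Inside the groups, array set B minus set A, averaged over SP and non-SP, was 0.59 for GNG5, 0.36 for GNG12 212294_at, -0.60 for GNG7 206896_s_at and 0.12 for GNG11 204115_at. The negative controls were exceeded on all arrays by 13 member probe sets. Of these, 8 differed more between the array sets than between SP and non-SP cells. No share over all probe sets was taken for this count, so it is not read as a trait of the family. GNG11 was chosen for its group difference, so its place outside the 8 was set in advance. Over all probe sets the median size of the set difference was 0.19 and that of the group difference 0.15. The array sets were read from these same values, so no test was made. The ACTB measure moves with the sets, while that of GAPDH overlaps between them. The part of RNA integrity in the values of GNG5, GNG7 and GNG12 was not tested.

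**Figure D3:**
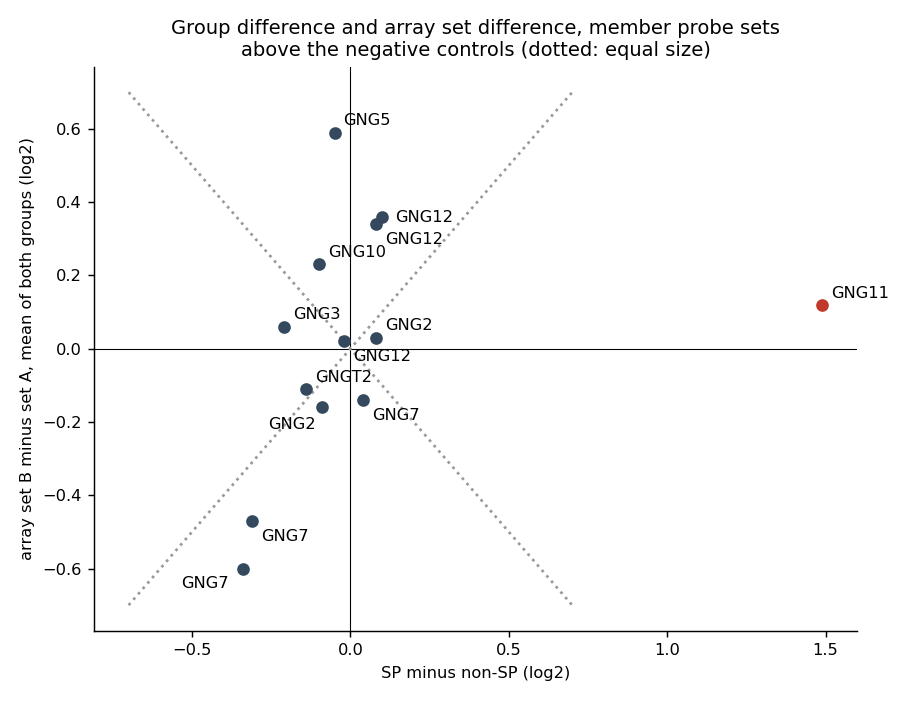
SP minus non-SP difference (horizontal axis, log2) against array set B minus set A inside the groups (vertical axis, log2) for the 13 member probe sets above the negative controls on all 6 arrays. GNG11 lies at 1.49 and 0.12, GNG5 at -0.05 and 0.59, and GNG7 206896_s_at at -0.34 and -0.60.

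GNG3, a gamma subunit mainly of neurons, read 6.80, 6.68 and 6.61 in non-SP and 6.39, 6.46 and 6.59 in SP samples. Each SP value was below each non-SP value, though by only 0.02 at the closest, and the difference was -0.21 (SE 0.13). GNGT2 of cone transducin read 5.02, 4.67 and 4.78 in non-SP and 4.68, 4.64 and 4.73 in SP samples and overlapped, with a difference of -0.14 (SE 0.14). GNG2, the gamma subunit often used to model the dimer, was near the controls at all 4 of its probe sets. The brightest of them, 223943_s_at, read 3.65, 3.53 and 3.72 in non-SP and 3.65, 3.54 and 3.43 in SP samples.

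GNG4, best known from brain, lay near the negative controls or under them: over its 4 probe sets and 6 arrays the values ran from 2.44 to 3.02. At 1 of them, 1555867_at, the SP values of 2.49, 2.44 and 2.48 lay under the non-SP values of 2.60, 2.55 and 2.66, all below the controls. GNGT1 of rod transducin read 2.65, 2.56 and 2.40 in non-SP and 2.58, 2.84 and 2.40 in SP samples, below the controls on all 6 arrays. In all, 5 of the 21 probe sets lay below the controls on all arrays, 3 on some of them and 13 on none. Those 13 cover 8 of the 10 genes, the exceptions being GNG4 and GNGT1.

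GNGT1 and GNG11 are next to each other among the protein-coding genes of chromosome 7 and are read in the same direction. Their upstream sequences are shown because probe sets of these adjacent paralogs gave such unlike values. The only GNGT1 probe set lay below the controls in both groups, and GNG11 204115_at lay well above them and higher in SP cells. The other GNG11 probe set was below the controls too, so a dim probe set does not give the level of its gene. The 250 bases before each start site are given 5′ to 3′ on the plus strand (RefSeq, GRCh38.p14), with CpG dinucleotides in capitals, at chr7:93921485-93921734 for GNG11 and chr7:93906317-93906566 for GNGT1.
GNG11: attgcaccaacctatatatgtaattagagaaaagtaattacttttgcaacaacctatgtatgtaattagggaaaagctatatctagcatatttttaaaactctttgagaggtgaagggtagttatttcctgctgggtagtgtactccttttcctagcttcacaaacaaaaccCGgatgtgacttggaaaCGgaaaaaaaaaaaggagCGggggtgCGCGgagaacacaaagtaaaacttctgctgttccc
GNGT1: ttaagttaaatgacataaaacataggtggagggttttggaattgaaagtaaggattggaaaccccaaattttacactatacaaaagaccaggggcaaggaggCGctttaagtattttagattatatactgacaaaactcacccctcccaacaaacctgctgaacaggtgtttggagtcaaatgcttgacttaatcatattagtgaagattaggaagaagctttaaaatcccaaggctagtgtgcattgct
The GNG11 window held 5 CpG dinucleotides and the GNGT1 window 1, where the median over 35116 promoter windows of that length was 11. At least 5 were found in 65.7% of windows and at least 1 in 93.9%. Searched on both strands, TATAAA (in 10.7% of all windows), GGGCGG (42.6%) and TGACGTCA (1.65%) were in neither window, and CCAAT (32.0%) was found once, on the minus strand of the GNGT1 window. GGGCGG and TGACGTCA hold a CpG themselves. The arrays do not measure promoter activity, and the matches describe the letters only.

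The genes around GNG11 were taken as the 10 measured protein-coding genes on each side in RefSeq order, and 19 of these 20 were tested, GNGT1 being a member. None passed an adjusted p of 0.05 over all probe sets, 0 higher and 0 lower (limma), and 2 (10.5%) had an unadjusted p under 0.05, beside 6.18% of all genes. Their median difference was 0.01, with 10 above 0 and 9 below. Next to GNG11, on the side away from GNGT1, BET1, which acts in transport between endoplasmic reticulum and Golgi, read 9.18, 10.00 and 9.18 in non-SP and 8.76, 9.90 and 9.94 in SP samples. These values follow the array sets, and the difference was 0.08 (SE 0.39, limma adjusted p = 0.985), turning to -0.25 with the array set as a block. Beyond BET1 lie the collagen gene COL1A2 (difference -0.19, SE 0.15) and CASD1, a sialic acid acetyltransferase (0.56, SE 0.32). The 3 probe sets of CASD1 ran from -0.20 to 0.56, and its difference was 0.16 with their mean, 0.37 with the array set as a block and 0.30 without SP replicate 3 or without non-SP replicate 3.

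On the other side, past GNGT1, TFPI2, an inhibitor of serine proteases, had a difference of 0.45 (SE 0.35), with 3.87, 4.57 and 3.41 in non-SP and 3.94, 4.38 and 4.86 in SP samples. The groups overlapped, and its other probe set gave 1.01, or 0.73 for their mean. Set B was higher than set A by 0.80 inside the groups, and the TFPI2 difference was 0.18 with the array set as a block. It ran from 0.18 without non-SP replicate 3 and 0.21 without SP replicate 3 to 0.76 without non-SP replicate 2, and array weights gave 0.71. The calcitonin receptor gene CALCR differed by 0.02 (SE 0.14). The 2 neighbours whose groups did not overlap were SAMD9 and SAMD9L, named after their values were seen, a pair of antiviral and growth-restricting genes further out. They are 10.5% of the 19, where 11.9% of all genes had groups apart in either direction and 4.78% with SP higher, so the share in either direction was near that background. SAMD9 had a difference of 1.04 (SE 0.29, limma adjusted p = 0.486) and SAMD9L one of 0.68 (SE 0.16, limma adjusted p = 0.411). Probe sets of each disagreed, the lowest being -0.10 for SAMD9 and -0.15 for SAMD9L. 

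**Figure D4:**
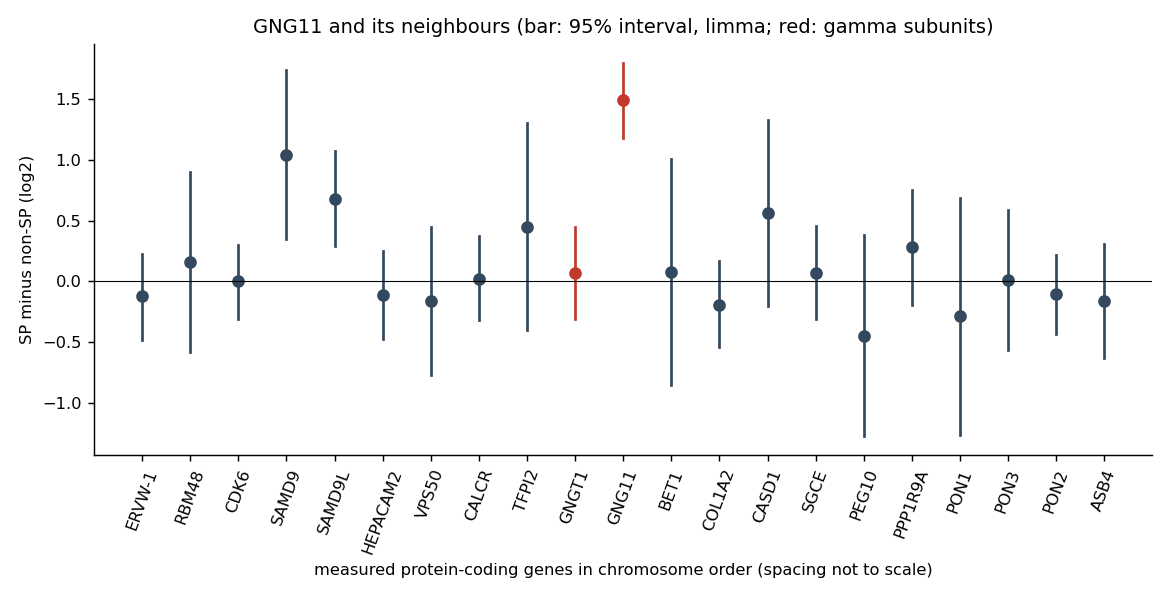
SP minus non-SP difference (log2) with its 95% interval for GNG11 and the 10 measured protein-coding genes on each side, in chromosome order and not to scale. GNG11 lies at 1.49, its neighbours GNGT1 and BET1 at 0.07 and 0.08, and SAMD9 and SAMD9L at 1.04 and 0.68.

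Partners and targets of the gamma subunits were read from 9 lists chosen by role, and 114 genes were measured. None of the 114 passed an adjusted p of 0.05, 0 higher and 0 lower (limma over all probe sets). An unadjusted p under 0.05 was seen for 7 of them (6.14%), as for 6.18% of all genes. Their median difference was -0.04 beside -0.02 for all genes, and 38.6% lay above 0 beside 45.2%. Groups that did not overlap, in either direction, were seen for 8.77% of the 114, beside 11.9% of all genes. The gamma subunits outside the members, GNG8 and GNG13, differed by -0.04 (SE 0.14) and -0.02 (SE 0.14).

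Of the 5 beta subunits, which form the other part of the dimer, 2 lay above 0 and 3 below. GNB1, the most widely used, differed by 0.11 (SE 0.15), GNB2 by -0.15 (SE 0.14) and GNB4 by -0.20 (SE 0.15). GNB5, which mainly partners RGS proteins with a gamma-like domain, read 7.11, 6.63 and 6.86 in non-SP and 7.52, 7.12 and 7.58 in SP samples. Its groups did not overlap, by 0.01, and the difference was 0.54 (SE 0.19, limma adjusted p = 0.607). The lowest of its 5 probe sets gave -0.10 and their mean 0.26.

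The 16 alpha subunits had a median of 0.03, with 9 above 0 and 7 below. GNA11, of the Gq class, differed by 0.35 (SE 0.17), GNAI1, which inhibits adenylyl cyclase, by 0.24 (SE 0.15) and GNAO1 by -0.25 (SE 0.18). The limma adjusted p of these 3 lay between 0.733 and 0.848. The probe sets of GNA11 ran from -0.38 to 0.35 and those of GNAO1 from -0.25 to 0.21, and the means of their probe sets differed by 0.05 and -0.04.

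Enzymes that process the gamma tail gave a median of 0.07 over 6 genes. FNTA, the alpha subunit shared by the farnesyl and the geranylgeranyl transferase, differed by 0.15 (SE 0.12). FNTB, the beta subunit of the former, was near the controls, at 2.87 ± 0.13 (SD, n = 3) for SP samples and 3.10 ± 0.47 (SD, n = 3) for non-SP samples. PGGT1B, the beta subunit of the latter, differed by 0.22 (SE 0.27). Among 9 measured chaperones of the dimer and of alpha subunits the median was 0.03. RIC8B, which helps fold Gs class alpha subunits, read 5.51, 6.71 and 6.05 in non-SP and 6.23, 7.03 and 7.25 in SP samples, a difference of 0.75 (SE 0.38, limma adjusted p = 0.759). Its 3 highest values were those of array set B, which was higher by 0.92 inside the groups, and the difference was 0.44 with the array set as a block and 0.46 without non-SP replicate 1. The subunits CCT6A and CCT2 of the chaperonin TRiC differed by 0.17 (SE 0.12) and 0.10 (SE 0.12).

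The 24 measured effectors of the dimer had a median of -0.10, with 8 above 0 and 16 below. The adenylyl cyclase genes ADCY4 and ADCY1 differed by -0.36 (SE 0.14) and -0.21 (SE 0.13), and the phospholipase gene PLCB2 by -0.25 (SE 0.15). Probe sets disagreed for ADCY1 (-0.28 to 0.21, mean -0.04) and PLCB2 (-0.25 to 0.02, mean -0.11). Of 8 receptor kinases and arrestins, 2 lay above 0. GRK5, a kinase that phosphorylates active receptors, read 5.76, 5.80 and 5.75 in non-SP and 5.98, 5.96 and 5.99 in SP samples, without overlap. The GRK5 difference of 0.21 (SE 0.11) turned to -0.02 with the mean of its 4 probe sets. ARRB1, the scaffold beta-arrestin 1, differed by -0.75 (SE 0.36, limma adjusted p = 0.736), with its low values in array set B (7.16, 6.42 and 6.58, beside 7.99, 7.71 and 7.60 in set A). With the array set as a block it was -0.45. GRK3, which the freed dimer recruits to the membrane, differed by -0.27 (SE 0.18), and by -0.05 with the mean of its 3 probe sets, the highest of which gave 0.19.

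RGS proteins speed the return of the alpha subunit to its GDP form. RGS2, which acts mainly on Gq, read 7.95, 7.62 and 8.00 in non-SP and 6.90, 6.03 and 6.99 in SP samples. All SP values were lower, by 0.64 at the closest, and the difference of -1.22 (SE 0.28) had the lowest adjusted p among the 114 genes, 0.383 (limma), above the threshold. RGS17 differed by -0.44 (SE 0.17) and RGS14 by -0.56 (SE 0.24), the latter with probe sets from -0.56 to 0.02 and a mean of -0.28. The 23 measured genes of this list had a median of -0.02.

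Receptors for lysophospholipids, chemokines, proteases, prostaglandins and endothelin gave a median of -0.06 over 21 genes, 6 above 0 and 15 below. S1PR1, the receptor for sphingosine 1-phosphate that couples to Gi, read 3.75, 3.01 and 5.32 in non-SP and 2.82, 1.72 and 2.10 in SP samples. The SP values lay at or under the negative controls, so the size of the measured difference of -1.81 (SE 0.60, limma adjusted p = 0.566) is limited by background. It was -1.17 without non-SP replicate 3, the highest sample. The prostaglandin E2 receptor genes PTGER3 and PTGER1 differed by -0.43 (SE 0.14) and -0.32 (SE 0.12), with limma adjusted p of 0.551 and 0.621. The means of their probe sets differed by -0.21 and -0.15.

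**Figure D5:**
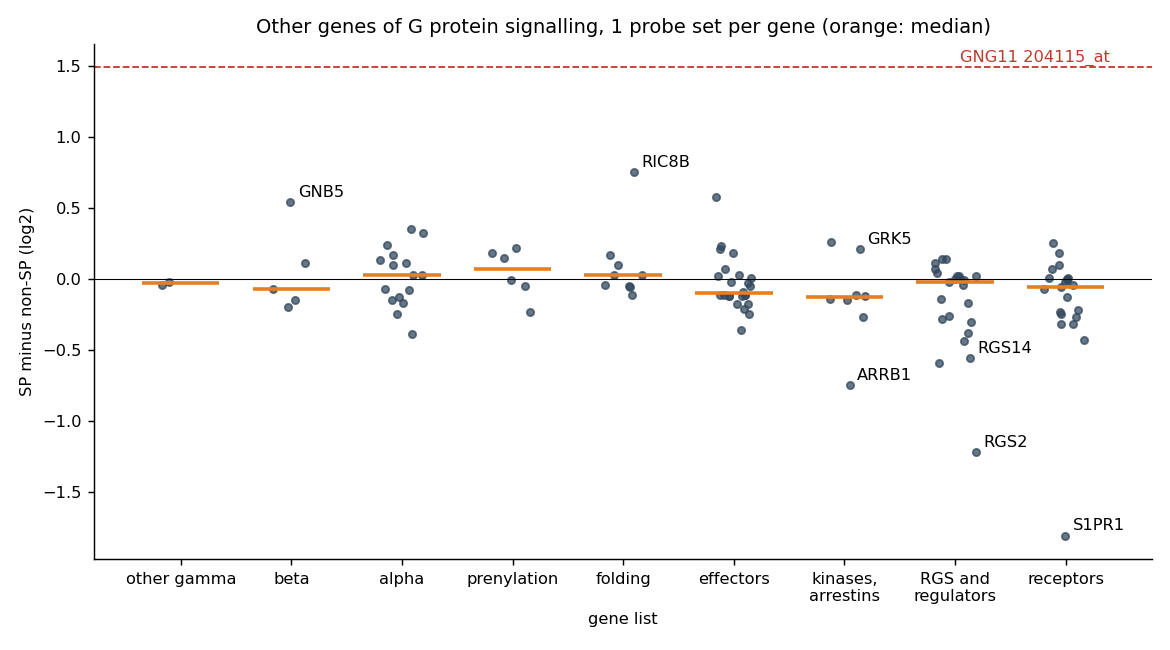
SP minus non-SP difference (log2) of the 114 other genes of G protein signalling by list, 1 point per gene and the list median in orange, with the GNG11 difference of 1.49 as a dashed line. The 114 points lie between -1.81 for S1PR1, measured against SP values at background, and 0.75 for RIC8B, which is 0.44 with the array set as a block.

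Genes whose levels over the 6 arrays most resembled those of GNG11 were sought by Pearson correlation among 9886 genes with a mean above 6.27, the median over genes. The correlation is led by the gap between the groups and by the shared arrays, and 107 genes had an r of at least 0.9 and 121 one of -0.9 or lower. The highest were SCAF4 (r = 0.992), which acts in transcription termination, TSC22D2 (0.991), WDR4 (0.986), a subunit of a tRNA methyltransferase, MRFAP1L2 (0.980) and the DNA helicase gene BLM (0.977). SCAF4 read 8.21, 7.91 and 7.80 in non-SP and 9.21, 9.42 and 9.26 in SP samples, and the other 4 genes differed by 0.31 to 0.90. The lowest were NFATC4 (-0.996), H2AC6 (-0.992), the connexin 43 gene GJA1 (-0.988), POLE4 (-0.988) and SLC12A3 (-0.986), with differences from -4.29 for GJA1 to -0.10 for POLE4. Other probe sets of SCAF4, TSC22D2, WDR4, NFATC4 and POLE4 had differences of the opposite sign. Among the other gamma subunits bright enough to be compared, r with GNG11 was -0.75 for GNG3, -0.50 for GNG7, -0.29 for GNG10, 0.00 for GNG5 and 0.28 for GNG12.

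GNG11 is abundant in platelets and endothelial cells, so their markers are given beside it. Of 6 platelet and megakaryocyte markers, 5 lay above the negative controls on all arrays and PPBP on none. Their summed log2 level was 30.83 to 32.21 in SP and 30.03 to 33.34 in non-SP samples, which overlap, with a median difference of 0.08. Of the 6, 4 lay above 0: PF4 differed by 0.07 (SE 0.17), GP9 by 0.08 (SE 0.14), ITGA2B by 0.21 (SE 0.34) and TUBB1 by 0.09 (SE 0.38). GP1BA differed by -0.70 (SE 0.15) and PPBP, under the controls, by -0.06 (SE 0.19). Of 6 endothelial markers, 5 lay above the controls on all arrays and TEK on 5 arrays. The sum was 29.94 to 31.10 in SP and 31.33 to 31.46 in non-SP samples, without overlap. No background share was taken for such sums, so nothing is read from this gap. PECAM1 differed by -0.20 (SE 0.21), VWF by -0.29 (SE 0.14), ESAM by -0.29 (SE 0.11) and TEK by -0.15 (SE 0.20). CDH5 differed by 0.05 (SE 0.21) and CLDN5 by -0.01 (SE 0.12). The median difference of the 6 was -0.18, with 1 above 0. The 7 measured rod and cone markers, the cells of GNGT1 and GNGT2, summed to 35.75 to 36.07 in SP and 34.78 to 35.97 in non-SP samples. Leukocyte (5 measured) and fibroblast (6 measured) markers had median differences of -0.03 and -0.12. None of the markers in these 5 lists passed an adjusted p of 0.05 (limma), and 2 had an unadjusted p under 0.05, beside the 3 epithelial and Mullerian markers above. With that list included, the count was 5 of 39 markers, where 6.18% of all genes had an unadjusted p under 0.05 (limma).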

How the data were processed

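RNA of sorted SP and non-SP IGROV1 cells was amplified from picogram amounts and labelled with biotin, per the labels' protocols, steps that widen the spread of weakly expressed transcripts. The table holds deposited log2 expression, 1 value per probe set and array, made by the authors with R 2.8.1, affy and RMA, per the submitters' processing notes. Its other settings: not given in the sources used here. RMA hides any global change in RNA content and compresses differences near background. Precision depends on how few arrays there are.

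Of 54675 probe sets, 62 controls were left out. Symbols came from the platform annotation (41091 probe sets with 1 symbol, 1801 with several, 11721 with none); 41037 matched RefSeq of GRCh38.p14 by Entrez ID and 0 changed. Differences are SP minus non-SP. The fit used lmFit and eBayes of limma 3.58.1 under R 4.3.3 (no block), two-sided, over all 54613 probe sets, with Benjamini-Hochberg adjustment and a threshold of 0.05. Standard errors and 95% intervals come from that fit. For lists and neighbours, a gene was read at its brightest probe set by the mean over the 6 arrays. Tables were read with pandas 2.3.3 in Python 3.11.15, and figures drawn with matplotlib 3.10.9.

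The members and lists were chosen with earlier results of these data known. Named were all members, up to 3 genes per list by unadjusted p, 3 neighbours on each side, and the genes at either end of the correlation with GNG11, 5 at each. GNB1, the 6 platelet and the 6 endothelial markers, EPCAM, PAX8, KRT7, KRT8 and CDH1 were named besides. Alternatives tried: the replicate number as a block, averaging a gene's probe sets, 1 probe set per gene, a filter on dim probe sets, cyclic loess, median centring, a trend with a robust prior, array weights, the array set as a block and leaving out each sample.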

Additional observations from a re-analysis of the deposited data

How the results depend on the processing

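Over 15 alternatives the GNG11 difference of 1.49 stayed between 1.42 and 1.55, except with the mean of its probe sets (0.70), which averages in the one below the negative controls; the replicate block gave 1.49 (SE 0.14). For the other members, 131 of 131 alternative values stayed within 1 SD of the reported one, though the sign turned for GNG5 (-0.05 to 0.13 with array weights, and 0.17 and 0.13 without SP replicate 1 and non-SP replicate 2), GNG12 (0.10 to -0.02 with the array set as a block and -0.04 without non-SP replicate 1) and GNGT1 (0.07 to -0.05 without SP replicate 2). The count of probe sets past the threshold, 1, was 0 with the mean of probe sets, with the filter on dim probe sets and with the replicate block, 5 with the array set as a block, and 0 to 2 with 1 sample left out. The counts for G protein genes and for neighbours were 0 in each. Same-numbered samples are not paired by the labels, and their deviations correlated at 0.34, 0.27 and -0.16; 3 of 6 arrays correlated best with their own number. Of 452 values for named genes outside the family, 435 kept direction and side of the threshold. Outside the family signs turned for differences near 0: BET1 (-0.25 with the array set as a block, -0.13 to 0.46 with 1 sample left out), CALCR (-0.02, and -0.05 to 0.10), GNG13 (0.05 with array weights, 0.00 with cyclic loess, and -0.12 to 0.04), GNG8 (0.00 with array weights, and -0.16 to 0.05), FNTB (-0.46 to 0.01 with 1 sample left out) and GRK5 (-0.02 with the mean of probe sets). Apart from the averaging for GNG11 and GRK5, the cause was not tested. With the filter on dim probe sets GNG2, GNG4, GNGT1 and GNGT2 had no value. Differences near the negative controls are limited by background.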
